A study of Mus musculus with 3 samples.

Results

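The Trpm8 neurons described here are sensory neurons of mouse dorsal root ganglia (DRG) that carry the transcript of the cold receptor TRPM8. They came from the DRG library, in which a barcode counted as a neuron when it had at least 10000 unique molecular identifiers (UMIs, 1 per captured transcript) and UMIs of at least 5 of 8 pan-neuronal genes. The members were chosen by their Trpm8 counts: at least 3 UMIs, making up at least 100 of every 1000000 UMIs of the neuron (the unit written CPM below). This selected 147 of 2948 neurons, or 4.99% (exact Clopper-Pearson 95% interval 4.23 to 5.83), out of 23566 barcodes of the library. The other 2801 neurons were the comparison. Because Trpm8 chose the members, its level is given as a description. Membership rests on RNA, and no response to cold was measured.

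The study concerns sensory nerves and fibroblast growth factor 1 (FGF1) in tendon, and its 3 droplet libraries (10x Genomics) came from C57BL/6 mice. For the DRG library, mice aged 4 weeks received 5 µL of AAV-PHP.S-tdTomato, an adeno-associated virus with a red fluorescent reporter, in the left Achilles tendon sheath, by injection. The ganglia, from L4 to S1, were taken 4 weeks later, and 18 ganglia of 6 mice were pooled and enriched on an Optiprep density gradient, which can set the share of neurons. The labels disagree on the vector, calling it a lentivirus in one place, and on the side, giving the injected side only in one text and both sides in another. The other libraries were Achilles tendon after sham surgery and after cutting of the sural nerve 1 week earlier, both after 4 weeks of immobilisation in dorsiflexion and with 5 mice each. All members come from 1 pooled library and neurons are not replicates, so differences are reported without p-values and without any check between animals. All intervals are exact 95% intervals and cover counting error only.

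TRPM8 is a cation channel of the transient receptor potential (TRP) family that opens on cooling and with menthol, and mice that lack it respond poorly to cool and mildly cold surfaces. It is made by a small set of thin sensory neurons with endings in skin and in cornea, among other sites. There TRPM8 supplies the depolarising current, while potassium channels that leak at rest or open on depolarisation set how much cooling is needed to fire. Activity of TRPM8 also depends on the membrane lipid PIP2, which phospholipases C break down.

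The members were shallower than the other neurons, with a median of 33750 UMIs (range 10969 to 123757) against 52852, and a median of 6983 against 7857 genes. Their 147 barcodes held 5171566 UMIs. Scrublet marked 2 of the 147 and 21 of the 2801 as doublets, which stayed in. Of the members, 3 had a barcode sequence that also occurred in the sham tendon library and 0 had one of the neurectomy library. Mitochondrial UMIs took a median of 4.32% in members and 4.93% in other neurons.

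Trpm8 itself ranged from 3 to 46 UMIs per member, with quartiles of 7.5 and 16 and a median of 10. As a share of each neuron's UMIs this was 105 to 1122 CPM, with a median of 336. Of all Trpm8 UMIs of the DRG library, 1815 of 2125 (85.4%) lay in the 147 members, 275 in the other neurons and 35 in barcodes that were not neurons. The signal was therefore held mostly by members, with a thin tail in other neurons, and free Trpm8 RNA was scarce. Satellite glia, which should lack the channel, were a gate of 5341 barcodes with Fabp7 at 3 UMIs and 100 CPM or more. The gate also asked for UMIs of fewer than 3 of the 8 pan-neuronal genes. Of these barcodes 0.112% had a Trpm8 UMI at a median depth of 5188 UMIs. Barcodes with more neuronal RNA are left out by this gate, so its shares can understate free RNA of neurons.

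The limit of membership cut through a tail. Just inside it, 10 members had 3 or 4 UMIs and 13 lay between 100 and 150 CPM. Just outside it, 26 deeper neurons had at least 3 Trpm8 UMIs but at most 97.6 CPM, 45 neurons had 2 UMIs and 94 had 1. The other 2636 neurons had 0.

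Foxp2, which encodes a forkhead transcription factor and is the second marker given for these cells, was not used to choose them. Members had 0 to 51 Foxp2 UMIs, with quartiles of 7.5 and 19 and a median of 11, whereas the upper quartile of the other neurons was 0. With every neuron thinned to 10000 UMIs, 91.8% of members (86.2 to 95.7) and 5.39% of other neurons (4.58 to 6.29) had a Foxp2 UMI, and without thinning the shares were 95.9% and 9.53%. Satellite glia carried Foxp2 in 11.3% of barcodes at their lower depth, and 830 barcodes that were not neurons but had at least 10000 UMIs carried it in 22.8% after thinning and 24.8% before. The share in other neurons was thus below this level and that in members above it. Summed over all members, Foxp2 stood at 406 CPM against 9.16 CPM in the other neurons, a log2 ratio of 5.47 (5.37 to 5.57).

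Across the Trpm8 limit the Foxp2 share fell in steps. At least 3 Foxp2 UMIs were present in 9 of the 10 members with 3 or 4 Trpm8 UMIs. They were present in 9 of the 26 neurons just outside the CPM limit, in 33 of 139 neurons with 1 or 2 Trpm8 UMIs, and in 82 of 2636 neurons without any. Trpm8 is present in every member by the rule, so of the 2 markers only Foxp2 could bear on the label, and most members carried it. A smaller set of neurons outside the limit carried both transcripts.

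**Figure D1:**
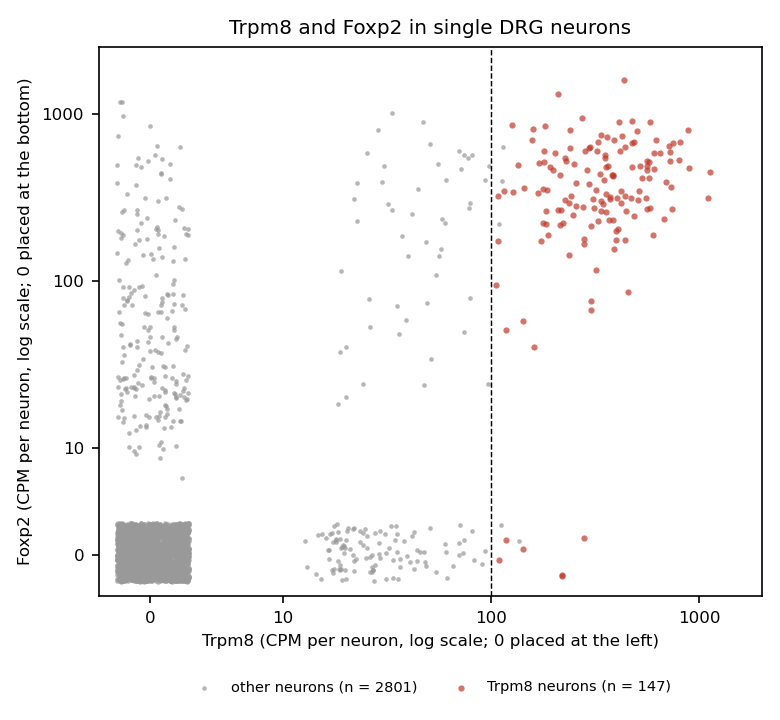
Trpm8 against Foxp2 in each of the 2948 DRG neurons, in CPM on log axes, with neurons at 0 spread out beside the axis; red points are the 147 Trpm8 neurons, grey points the 2801 others, and the dashed line marks 100 CPM. Most red points lie above 100 CPM on both axes, a few lie at 0 Foxp2, and grey points right of the line have fewer than 3 Trpm8 UMIs.

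When all neurons were clustered with Trpm8 left out of the genes, 137 of the 147 members (93.2%) fell into 2 of 26 clusters. Foxp2 was not left out and was among the leading genes of both, with log2 ratios of 5.50 and 4.49 against all other neurons. The Foxp2 counts by cluster are therefore a description and no separate check of the label. Cluster 9 held 89 members among 122 neurons and cluster 15 held 48 among 82. At least 3 Foxp2 UMIs were found in 133 of these 137 members. The neurons of the same clusters that missed the Trpm8 limit were much like them in this respect. Among the 33 in cluster 9, 31 had at least 3 Foxp2 UMIs and 15 had a Trpm8 UMI, and among the 34 in cluster 15 the numbers were 28 and 19.

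The remaining 10 members were scattered over 6 clusters. Only 4 of them had at least 3 Foxp2 UMIs, and 1 was marked as a doublet. They had 4 to 10 Trpm8 UMIs with a median of 7, and Trpm8 summed to 139 CPM in them, below the 371 and 378 CPM in the members of clusters 9 and 15. These 10 neurons contributed 141 of the 186 UMIs of Scn10a and 1123 of the 2511 UMIs of Calca found in members, and several levels below are for that reason also given for the 137 members of both main clusters. Such genes could themselves help form the clusters, and so place members that carry them outside clusters 9 and 15. Larger differences without the 10 can thus come in part from the clustering, and are given as a description.

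Trpm8 was also detected at a low level in neurons that were not members. In cluster 10, led by Fam19a1 and Sema5a, 38.5% of its 104 other neurons (29.1 to 48.5) had a Trpm8 UMI. In cluster 18, which had Col11a1, Cntn5 and Esr1 among its leading genes, 23.9% of 71 did (14.6 to 35.5). Their summed levels were 14.6 and 10.4 CPM. Cluster 10 also held 2 members and cluster 18 held 4, with 16 and 27 Trpm8 UMIs. Only 1 neuron in each of these clusters, and no member in them, had at least 3 Foxp2 UMIs.

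**Figure D2:**
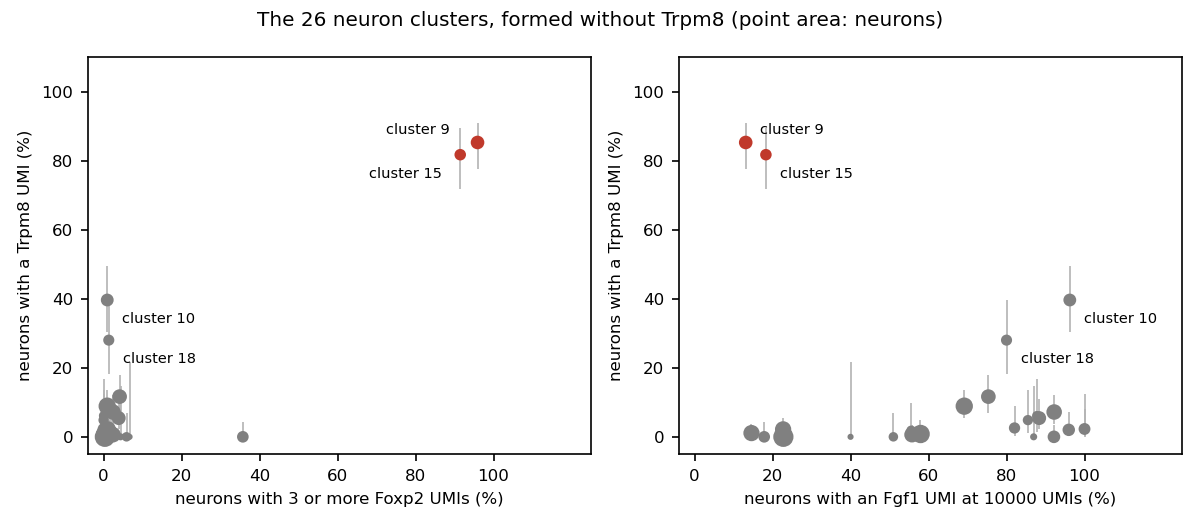
The 26 neuron clusters, 1 point each with area proportional to the number of neurons, members included, showing the percentage with a Trpm8 UMI (with exact 95% interval) against the percentage with at least 3 Foxp2 UMIs (left) and against the percentage with an Fgf1 UMI after thinning to 10000 UMIs (right). Clusters 9 and 15 (red), which hold 137 of the 147 Trpm8 neurons, stand at the upper right on the left and at the upper left on the right, while clusters 10 and 18 have Trpm8 UMIs with almost no Foxp2 and with Fgf1. Trpm8 took no part in forming the clusters, whereas Foxp2 and Fgf1 were not left out.

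The members of clusters 9 and 15 differed in their glial transcripts, among others. Transcripts of 18 glial genes made up a median of 13.5 of every 10000 UMIs in the members of cluster 9 and 124 in those of cluster 15. Between them, 309 of 7441 genes were at least 2-fold higher in cluster 15 and 28 were lower. Apoe, an apolipoprotein made by satellite glia, stood at 146 and 8533 CPM, and Fabp7, a fatty acid binding protein of the same cells, at 15.1 and 1491 CPM. Genes outside the glial lists were higher in cluster 15 as well, among them the immediate-early genes Fos (357 and 1046 CPM) and Egr1 (111 and 284 CPM) and the antigen presentation gene Cd74 (1.28 and 92.0 CPM). Fos was also found in nearly all satellite glia barcodes, and how much of these differences is glial RNA was not tested. Trpm8 and Kcnk9 (73.4 and 74.7 CPM) differed by less than counting error. Foxp2 was lower in cluster 15 beyond counting error (470 and 388 CPM, log2 ratio −0.28, −0.42 to −0.14), and so were Tac1 (4308 and 2937 CPM) and Calca (348 and 194 CPM). Over all members, the list of satellite glia markers had 8 of 10 genes that entered the comparison, with 7 at least 2-fold higher than in other neurons, and its summed level was 3700 against 1375 CPM. More than 20 glial UMIs per 10000 were found in 42.9% of members and 37.9% of other neurons. The glial share in the differences below was measured by leaving such neurons out or by keeping cluster 9 alone: of 105 named genes past 2-fold, 103 stayed past it in each case, and Apoe turned sign in both.

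Of 7509 genes with at least 50 summed UMIs and at least 20 CPM in the higher group, 623 (8.30%) were at least 2-fold higher in Trpm8 neurons and 497 (6.62%) at least 2-fold lower, and the median log2 ratio was 0.09. The counts for gene groups below are to be read against these shares. Leaving out the 10 scattered members moved 33 of the 56 named lower genes over 1.5 times further from 0 and 0 of the 63 named higher genes. As the named genes could help form the clusters that set these 10 apart, this is no separate support for lower levels. The looser limit of 2 Trpm8 UMIs and 50 CPM moved 28 of the 119 by over 1.5 times, 27 of them towards 0. The counts describe summed levels, for which fewer expressing cells and less RNA per cell cannot be told apart unless shares of neurons are given.

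The highest ratios belonged to genes of several kinds. Cpxm2, a secreted protein of the carboxypeptidase family, stood at 77.7 CPM in members and 1.47 CPM in the others, and had a UMI in 44.9% and 1.64% of neurons thinned to 10000 UMIs. Col4a3 and Col4a4, which encode chains of basement membrane collagen IV from adjacent genes, were at 42.5 and 38.3 CPM in members against 1.21 and 2.09 CPM. Kcnn3, the calcium-activated potassium channel SK3, stood at 40.4 against 1.58 CPM. These 4 genes were rare in other neurons and were detected in 25.2% to 44.9% of thinned members, so at this depth they marked only some of the set. The rule for naming the highest genes asked for at least 25% of thinned members, which sets the lower end.

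Other genes were found in nearly every member. Hpca, which encodes the neuronal calcium sensor hippocalcin, had 0 to 51 UMIs per member with a median of 9, and a median of 0 in other neurons. Its summed level was 295 against 18.8 CPM, and 89.1% of thinned members carried it. Cdh8, the adhesion molecule cadherin 8, had 0 to 66 UMIs with a median of 13, against a median of 1 in others, and stood at 418 against 36.1 CPM. Plcd4, a phospholipase C that cleaves PIP2, had a median of 8 UMIs with quartiles of 4 and 11, against a median of 0, and stood at 234 against 11.6 CPM. The quartile ranges of members and other neurons did not overlap for these genes, though the full ranges did.

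The other genes among the 20 highest had log2 ratios between 3.69 and 4.79. They included Olfm3, an olfactomedin family protein of neurons (4.40), Syndig1, which associates with AMPA receptors (4.29), Ndst4, a heparan sulfate sulfotransferase (4.06), the orphan receptor gene Gpr26 (3.97) and Dab1, an adaptor of reelin signalling (3.73). Hjurp, whose product loads the centromeric histone in dividing cells, lies next to Trpm8 on chromosome 1 and was at 385 against 19.2 CPM (4.33). Whether its reads can be told from those of its neighbour depends on the counting, which the sources used here do not describe. Kcnh8, a voltage-gated potassium channel gene (3.73), was also found in 54.7% of satellite glia barcodes, and its ratio was 3.95 in cluster 9 alone. How much of its level is glial RNA was not tested.

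**Figure D3:**
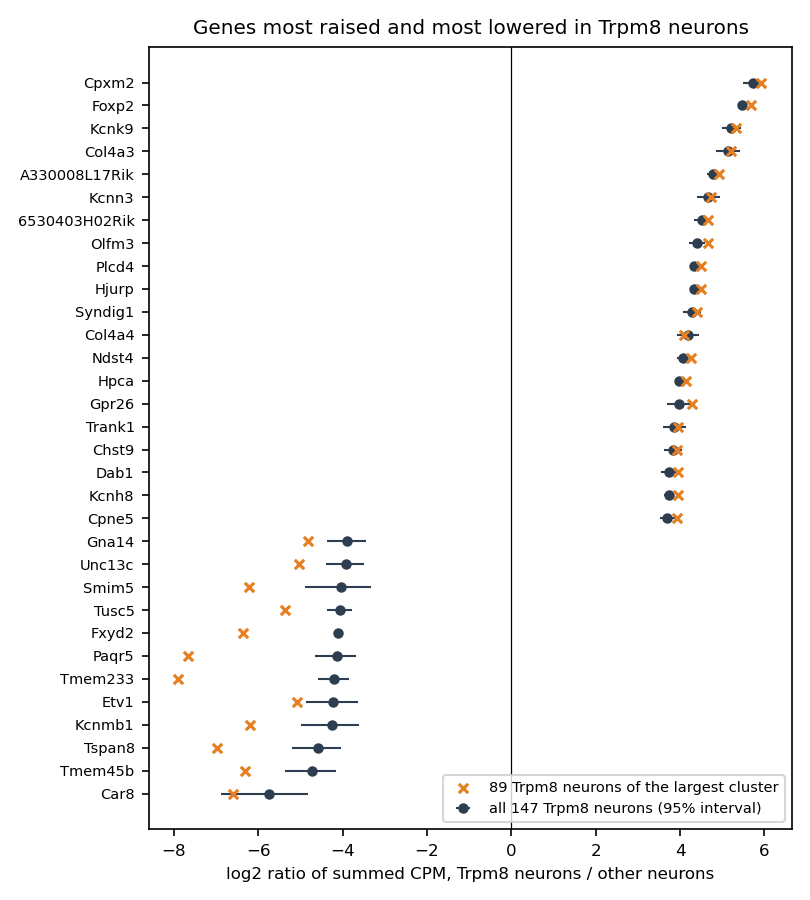
Log2 ratios of summed CPM between Trpm8 neurons and other neurons for the 20 highest and 12 lowest genes by the rule for named genes, with exact 95% intervals as bars (counting error only), and the same ratio for the 89 Trpm8 neurons of cluster 9 as crosses. The raised genes keep their ratios in cluster 9, and the lowered genes lie further from 0 there, though these genes could help form that cluster.

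Genes listed as markers of cold-sensing neurons were largely raised. Of the 10 in that list, 9 entered, 7 were at least 2-fold higher (Trpm8, which chose the cells, included) and 0 lower, with a median log2 ratio of 2.69. Beside Foxp2, Kcnk9 and Cdh8 these included the enkephalin precursor gene Penk (124 against 19.2 CPM) and the substance P precursor gene Tac1. Gfra3, the receptor for artemin, stood at 106 against 74.2 CPM (0.52), and Pirt, a membrane protein that binds TRPM8 and TRPV1, at 364 against 491 CPM (−0.43), so neither reached 2-fold. Rxfp1 had too few UMIs to enter.

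Among TRP channels, 9 of 23 genes entered, 3 were higher (Trpm8 among them) and 3 lower. Trpa1, the receptor for irritants such as mustard oil, had 17 UMIs in all members, 3.29 CPM against 42.8 CPM in the others (log2 ratio −3.70). Of these UMIs 12 lay in the 10 scattered members, and over the 137 members of both main clusters the log2 ratio was −5.32, whereas it was −2.12 at the looser Trpm8 limit. After thinning it was found in 0 of 147 members, which allows a share of up to 2.48%, and in 22.4% of other neurons. Trpv1, the receptor for heat and capsaicin, stood at 52.2 against 120 CPM and was found in 23.1% of thinned members (16.6 to 30.8) and 42.6% of other neurons, with 0.880% in satellite glia. Leaving out neurons rich in glial UMIs brought its log2 ratio from −1.20 to −0.91, short of 2-fold.

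The heat and cold receptors thus met in a minority of members. Trpc4, a receptor-operated cation channel gene, was raised (24.9 against 8.62 CPM), as was Trpv2 (88.4 against 39.8 CPM). Trpm3, another heat receptor gene, was at 247 against 154 CPM (0.68).

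Leak potassium channels split: of 14 genes 5 entered, 3 were higher and 2 lower. Kcnk9, which encodes the acid-sensitive leak channel TASK-3, had the highest ratio of the named channel genes after Trpm8. It had 0 to 9 UMIs per member with a median of 2, and a median of 0 with a maximum of 10 in the other neurons. Its summed level was 67.9 against 1.83 CPM (log2 ratio 5.21, 4.99 to 5.45), and 43.5% of thinned members and 1.61% of other neurons carried it. Kcnk2, the TREK-1 channel, which is sensitive to temperature and stretch, stood at 152 against 40.6 CPM, and Kcnk3 (TASK-1) at 84.7 against 42.0 CPM, a ratio just past 2-fold that fell below it in 4 of 16 alternative settings. Kcnk10 and Kcnk12 were lower, at 6.19 against 21.4 CPM and 3.29 against 25.4 CPM. The 10 scattered members held 22 of the 32 Kcnk10 UMIs. Its log2 ratio of −1.79 became −3.32 without them and −0.27, short of 2-fold, at the looser Trpm8 limit.

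Voltage-gated potassium channels and their partners, which act as brakes on firing, were mostly lower: of the 15 in the comparison, 10 were lower by 2-fold or more and 3 were higher. The lower ones included Kcna1 (20.1 against 97.7 CPM), Kcnq3 (2.32 against 20.4 CPM), Kcnd1 (10.4 against 69.2 CPM) and the channel-interacting protein gene Kcnip2 (8.12 against 55.8 CPM). Against other neurons with little Nefh, which leaves out large ones, the log2 ratio of Kcna1 was −0.76 in place of −2.28, short of 2-fold. The raised ones included Kcna2 (221 against 90.7 CPM) and Kcna4 (117 against 48.2 CPM). Genes of the same channel family thus lay on both sides.

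Pacemaker channels, which open on hyperpolarisation, were raised in 3 of 4 genes, with a median log2 ratio of 1.14. Hcn4 was at 22.6 against 2.83 CPM, and Hcn2 at 40.6 against 18.0 CPM, which fell short of 2-fold (log2 ratio 0.93) when neurons were thinned before the sum.

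Of 13 sodium channel genes that entered, 6 were higher and 2 lower, and the lower ones were the channels typical of nociceptors. Scn10a (Nav1.8) stood at 36.0 against 399 CPM and Scn11a (Nav1.9) at 17.2 against 211 CPM, and after thinning 12.2% and 5.44% of members carried them, against 84.3% and 70.0% of other neurons. Without the 10 scattered members, set apart by clusters that Scn10a itself could help form, the difference was larger. Scn10a was at 10.6 CPM in the 89 members of cluster 9. Over the 137 members of both clusters its log2 ratio moved from −3.47 to −5.37. Scn1a (Nav1.1) stood at 141 against 33.2 CPM and Scn3a (Nav1.3) at 111 against 24.3 CPM, while Scn9a (Nav1.7), a gene of the neuron gate, was at 468 against 418 CPM.

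Calcium channels had 4 of 12 genes higher and 1 lower, led by the subunit genes Cacnb2 (200 against 34.0 CPM) and Cacna1d (45.1 against 10.1 CPM). Of the other sensory channels, Asic1, an acid-sensing channel gene, was raised (63.6 against 9.61 CPM). Piezo2, the main channel of touch, stood at 70.6 against 401 CPM and P2rx3, an ATP receptor of nociceptors, at 18.8 against 150 CPM. The 10 scattered members held 281 of the 365 Piezo2 UMIs and 85 of the 97 P2rx3 UMIs, and without them the log2 ratios were −4.48 and −5.87 in place of −2.51 and −3.00.

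**Figure D4:**
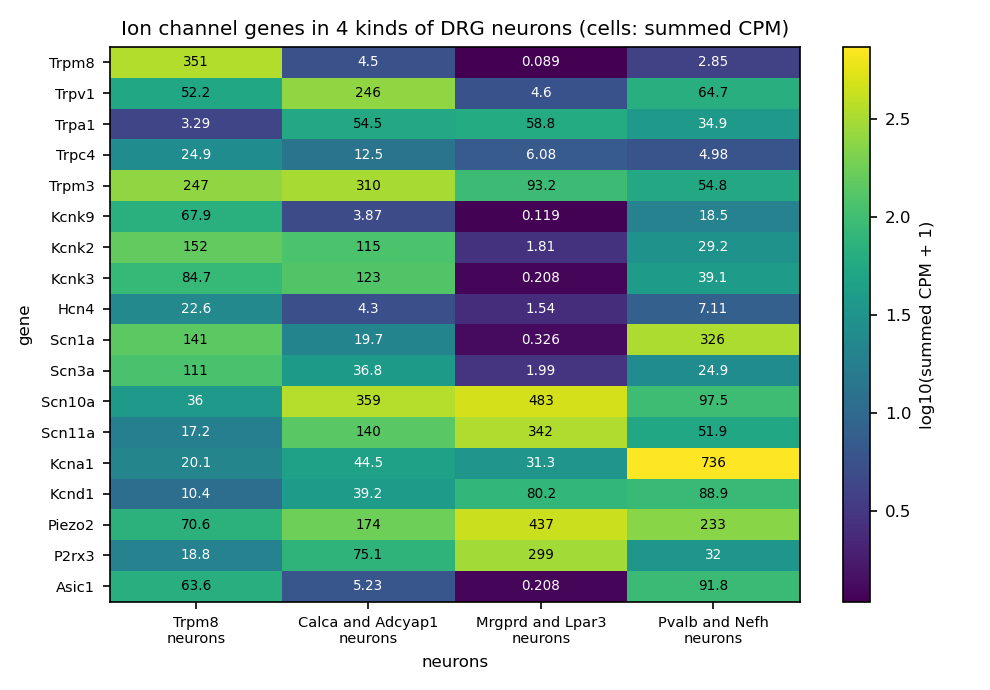
Summed CPM of 18 ion channel genes (printed in each cell, colour on a log10 scale after adding 1) in the 147 Trpm8 neurons and in neurons of 3 gates that are not Trpm8 neurons: Calca and Adcyap1, Mrgprd and Lpar3, Pvalb and Nefh. Trpm8 neurons combine Kcnk9 and Scn1a, which are low in the first and second of these, with little Scn10a, Scn11a and Trpa1.

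Peptide genes were raised in 4 and lowered in 7 of the 12 that entered. Tac1 was found in 95.2% of thinned members and 68.5% of other neurons, with 0 to 387 UMIs and a median of 114 per member against 16 in others, and summed to 3615 against 1229 CPM. Gal, the galanin gene, stood at 325 against 142 CPM. Penk was confined to fewer cells: 24.5% of thinned members (17.8 to 32.3) and 2.43% of other neurons had a UMI, and its median was 0 in both. Pnoc, the nociceptin precursor gene, was nearly limited to members, with 210 UMIs in 34 of them and 16 UMIs in 7 of 2801 other neurons.

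Calca, which encodes the peptide CGRP, was low rather than absent. Members had 0 to 561 Calca UMIs with a median of 4, against a median of 84 in other neurons, and summed to 486 against 2735 CPM. After thinning, 60.5% of members and 79.3% of other neurons carried Calca, and so did 10.2% of satellite glia barcodes, which puts part of the single UMIs within the range of free RNA. Sst, the somatostatin gene, had 0 UMIs in members, at least 59.6-fold lower than the 34.5 CPM of other neurons when set against 3 counts over the group. Nppb, a natriuretic peptide gene of itch neurons, had 5 UMIs (0.967 against 184 CPM), and Nts, the neurotensin gene, had 1 UMI, a log2 ratio of −8.42 with an interval of −13.7 to −5.94.

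Receptors for peptides and transmitters followed no single direction. Oprm1, the µ-opioid receptor gene, was found in 97.3% of thinned members and 65.0% of other neurons and stood at 679 against 269 CPM. Prlr, the prolactin receptor gene, was at 63.8 against 23.9 CPM, and fell short of 2-fold when each neuron counted equally. Npy2r had 3 UMIs in members, a log2 ratio of −5.90 with an interval of −8.18 to −4.35. At the looser Trpm8 limit this ratio was −1.95, far outside that interval. Of 14 receptors for amines, lipids and nucleotides, 9 were lower and 1 higher, with P2ry1 (2.90 against 59.2 CPM) and Ptgdr (1.55 against 31.1 CPM) among the lowest.

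Glutamate receptors were mostly raised, 7 of 12 higher and 1 lower, with a median log2 ratio of 1.13. Grm3, a metabotropic receptor gene, stood at 80.6 against 8.98 CPM and Gria3, an AMPA receptor subunit gene also found in 37.3% of satellite glia, at 124 against 17.2 CPM. The exception was Grik1, a kainate receptor subunit gene, at 50.9 against 708 CPM (log2 ratio −3.80). The 10 scattered members held 217 of its 263 UMIs, and over the other 137 members the log2 ratio was −6.17. Slc17a6, the vesicular glutamate transporter that marks excitatory neurons, was in 99.3% of thinned members and stood at 592 against 256 CPM.

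The enzymes that act on PIP2 differed strongly from gene to gene. Of 16 that entered, 3 were higher and 4 lower. Plcd4 was the highest, while Plcb3, a phospholipase C coupled to G proteins, stood at 11.8 against 99.3 CPM and Gna14, a G protein subunit that activates such enzymes, at 7.93 against 117 CPM.

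Growth factor receptors were lower in 7 and higher in 1 of 16 genes. Ntrk3, the receptor for neurotrophin 3, was the raised one (239 against 72.8 CPM). Osmr, the oncostatin M receptor (6.96 against 87.2 CPM), and Gfra1, a coreceptor for GDNF (8.51 against 67.2 CPM), were lowest, and Ret, the partner of that coreceptor, was at 138 against 340 CPM.

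Of 38 transcription factor genes that entered, 5 were higher and 7 lower. Tox (124 against 10.2 CPM) and Cux2 (35.0 against 7.38 CPM) followed Foxp2. Tox was also found in 46.7% of satellite glia, and its ratio in cluster 9 alone was 3.66 against 3.60 overall. Etv1, an ETS factor gene, was at 4.64 against 86.5 CPM and Casz1, a zinc finger factor gene, at 11.8 against 131 CPM.

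Cadherins and protocadherins, the cell adhesion molecules that include Cdh8, were raised in 8 and lowered in 2 of 15 genes, with a median log2 ratio of 1.37. Pcdh9 ranged from 9 to 246 UMIs per member with a median of 72, against a median of 4 in other neurons, so it was present in every member. It was also found in 93.5% of satellite glia, and its log2 ratio was 3.20 overall and 3.39 in cluster 9. Pcdh19 (68.3 against 7.51 CPM) and Pcdh15 (167 against 27.6 CPM) were raised too, whereas Cdh9, a gene of low-threshold mechanoreceptors in the list used here, had 2 UMIs in members (log2 ratio −6.33, −9.37 to −4.48).

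The 12 lowest genes by the same rule were each found in 25.9% to 93% of thinned other neurons. Fxyd2, a regulatory subunit of the sodium pump, stood at 376 against 6515 CPM, and 1587 of its 1947 UMIs in members came from the 10 scattered cells. Car8, a protein related to carbonic anhydrases, had 9 UMIs (1.74 against 93.1 CPM). Kcnmb1, a subunit of the BK potassium channel, stood at 3.67 against 70.3 CPM, and Unc13c, a vesicle priming protein gene, at 8.31 against 126 CPM. The log2 ratios of all 12 ran from −5.74 to −3.89, and all were lower still in cluster 9, which these genes could help form.

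Marker lists of other neuron types were mostly lower in members. All 7 genes that entered from the list of Mrgprd nociceptors were lower, with a median log2 ratio of −3.64, as were 7 of 8 from the list of Nppb itch neurons (median −4.63) and both that entered from the list of Mrgpra3 itch neurons. The list of low-threshold C-fibre mechanoreceptors had 5 lower and 2 higher of 9, and the peptidergic list 3 lower and 2 higher of 9. Genes of large neurons were 5 higher and 1 lower of 12, with Scn1a and Ldhb among the higher ones. Nefh, the heavy neurofilament gene of that list, was at 260 against 238 CPM (0.13).

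Of 16 stress genes, 0 were past 2-fold in either direction. Of 9 injury genes 1 was higher (Gal) and 2 lower (Nts and Lifr). The stress list had a median log2 ratio of 0.27 against 0.09 over all genes. Fos, an immediate-early gene, was highest of the list at 589 against 318 CPM (0.89), it was found in 97.8% of satellite glia, and in cluster 9 alone its ratio was 0.17.

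Gates of 9 neuron types, each asking for at least 3 UMIs and 100 CPM of both of 2 genes, showed where members overlapped with other types. The Calca and Adcyap1 gate held 72 members, 49.0% of them (40.7 to 57.3), and 37.8% of other neurons. Members made up 6.37% of that gate's 1130 neurons. Penk and Prlr were met by 7 members (4.76% against 1.36% of other neurons), Tafa1 and Kit by 5 (3.40% against 4.89%). Mrgprd and Lpar3 were met by 2 (1.36% against 14.8%). The gates of Th and Tafa4, Nppb and Sst, Mrgpra3 and Gda, Chrna3 and Htr3a, and Pvalb and Nefh held 0 members. This allows up to 2.48% in each, and 9.64%, 5.00%, 3.28%, 3.39% and 1.25% of other neurons passed them, in that order. The share for Pvalb and Nefh lies under 2.48%, so 0 members there shows no difference. None of the gates was met by 68 members (46.3%).

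Members were set beside 3 of these gates, and among the 3 they differed in the fewest genes from the peptidergic one, although the gates differ in size and depth. Against the 1058 neurons of the Calca and Adcyap1 gate that were not members, 438 of 7592 genes (5.77%) were at least 2-fold higher in members and 556 (7.32%) lower. Foxp2 was at 406 against 17.8 CPM, Kcnk9 at 67.9 against 3.87 CPM, Penk at 124 against 4.68 CPM and Asic1 at 63.6 against 5.23 CPM. Lower in members were Calca and Adcyap1, which chose the gate, and Trpv1, which was at 52.2 against 246 CPM. Tac1 (3615 against 3209 CPM) and Gal (325 against 423 CPM) were within 2-fold, so these genes set members apart from the average neuron but not from this type.

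Against 415 Mrgprd and Lpar3 neurons, 1627 of 7475 genes (21.8%) were higher in members and 574 (7.68%) lower. Foxp2 was at 0.831 CPM there and Tac1 at 211 CPM, and Scn10a was at 483 against 36.0 CPM in members. Against 35 Pvalb and Nefh neurons, 883 of 7734 genes (11.4%) were higher and 808 (10.4%) lower. Foxp2 was at 61.2 CPM in those neurons, Scn1a at 326 against 141 CPM in members, and Kcna1 at 736 against 20.1 CPM. The gate of 35 neurons was small, and its values rest on few cells.

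Members also differed among themselves. The 89 members of cluster 9 were clustered again, a step chosen after seeing the data, and gave 5 sub-clusters of 24, 20, 19, 16 and 10 neurons. The genes named next helped to define these sub-clusters and are a description only. Sub-cluster 0 (24 neurons, median 46429 UMIs) had S100a4 at 599 against 101 CPM in the other 65, Kcnh8 at 395 against 64.9 CPM, Fgf14 at 230 against 42.0 CPM and Rasgrp1, an activator of Ras, at 135 against 19.2 CPM. It had less Tac1 (1282 against 6181 CPM) and more Nefh (458 against 184 CPM).

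Sub-cluster 1 (20 neurons, median 26541.5 UMIs) held the opioid peptide genes. Pnoc stood at 247 against 4.25 CPM, Penk at 541 against 49.5 CPM and Thsd7b at 204 against 34.8 CPM. Trpv1 had 0 UMIs in these 20 neurons and 71.5 CPM in the other members of the cluster. Sub-cluster 3 (16 neurons) was led by Serpinb8 (87.5 against 9.97 CPM), with Ltbp1 (182 against 22.5 CPM) and Cd24a (260 against 46.9 CPM) further down. Sub-cluster 2 (19 neurons) was led by 1700019L22Rik (105 against 31.6 CPM) and Lama4, with Grm8 (83.0 against 28.1 CPM) behind them. Sub-cluster 4 (10 neurons) had Trpv1 at 251 against 31.9 CPM, with Esr1, the estrogen receptor gene, at 156 against 25.6 CPM. Foxp2 was found in 89.5% to 100% of thinned neurons of each sub-cluster.

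The 48 members of cluster 15 had no part in this division, and pairs of genes could be looked at in them. After thinning, Penk was found in 65.0% of the 20 members with Pnoc and in 15.9% of the 69 without it in cluster 9. In cluster 15 it was found in 66.7% of 9 members with Pnoc (29.9 to 92.5) and in 15.4% of 39 without (5.86 to 30.5). Thsd7b went with Pnoc likewise, at 85% against 27.5% in cluster 9 and at 100% of 9 (66.4 to 100) against 30.8% of 39 (17.0 to 47.6) in cluster 15.

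Fgf14, an intracellular FGF homologous factor that binds sodium channels, lay mostly in other members than Pnoc. It was in 5.00% of Pnoc members and 49.3% of the rest in cluster 9, and in 0 of 9 against 41.0% of 39 in cluster 15, where 0 of 9 allows a share of up to 33.6%. Rasgrp1 was found in 54.3% of Fgf14 members and 13.0% of the rest in cluster 9, and in 56.3% of 16 (29.9 to 80.2) and 9.38% of 32 (1.98 to 25.0) in cluster 15. The company of Trpv1 was less alike: Prlr was in 37.5% of Trpv1 members against 16.9% of the rest in cluster 9, but in 33.3% of 9 against 30.8% of 39 in cluster 15. These pairs come from cells of 1 pooled library, and what they share across mice was not tested.

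**Figure D5:**
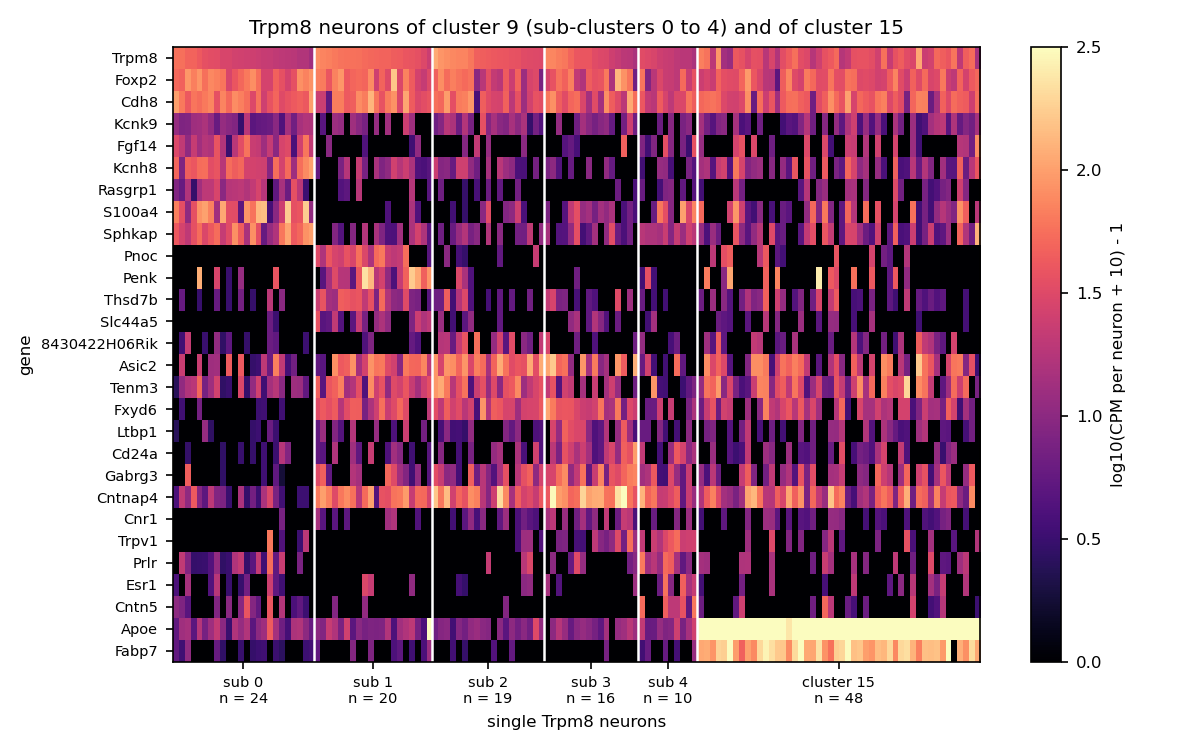
Levels of 28 genes (rows) in single Trpm8 neurons (columns), as log10 of CPM plus 10, less 1, for the 89 neurons of cluster 9 by sub-cluster 0 to 4 and the 48 neurons of cluster 15. The colour scale stops at 2.5. Trpm8, Foxp2 and Cdh8 are present in nearly all columns, Fgf14 and Pnoc fill mostly different columns, and Apoe and Fabp7 are high in nearly all neurons of cluster 15.

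Fgf1, the growth factor named in the study's title, was low in Trpm8 neurons. Members had 102 Fgf1 UMIs in all, 19.7 CPM against 155 CPM in the other neurons (log2 ratio −2.97, −3.27 to −2.69). After thinning, 14.3% of members (9.07 to 21.0) and 60.4% of other neurons (58.5 to 62.2) had an Fgf1 UMI. Barcodes that were not neurons and had at least 10000 UMIs (median 12765) carried it in 21.8% after thinning and 25.5% before, and satellite glia in 10.0%. The share over all members was below that of the non-neuron barcodes at the same depth and is not read as expression, and whether those barcodes express Fgf1 themselves was not tested. The 10 scattered members had it in 40% after thinning (12.2 to 73.8) and at 84.4 CPM. They held 42 of the 102 UMIs, and the 137 members of both clusters had a log2 ratio of −3.59, while the looser Trpm8 limit gave −1.53. Among the 26 clusters, cluster 9 had the lowest Fgf1 level (16.3 CPM) and cluster 15 the third lowest (27.9 CPM). In the 1058 Calca and Adcyap1 neurons Fgf1 was at 239 CPM and in the 35 Pvalb and Nefh neurons at 507 CPM, whereas the 415 Mrgprd and Lpar3 neurons had 25.7 CPM.

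Genes of the FGF system list followed no single direction: of 11 that entered, 3 were higher and 3 lower, Fgf1 among the lower ones. Fgf14 stood at 106 against 8.72 CPM, and S100a13, whose product takes part in the export of FGF1 from cells, at 104 against 356 CPM, a ratio that was short of 2-fold (−0.94) at the looser Trpm8 limit. The receptor gene Fgfr1 was at 50.5 against 44.1 CPM.

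The transcript of the injected vector was found in few members. The file lists 4 vector features, of which AAV_gene1 alone had UMIs in neurons. It was present in 8 of 147 members (5.44%, 2.38 to 10.4) and in 333 of 2801 other neurons (11.9%, 10.7 to 13.1). After thinning the shares were 2.72% (0.746 to 6.82) and 8.32% (7.32 to 9.40), and satellite glia had 0.468%. The 30 UMIs of the members made 5.80 CPM against 77.7 CPM in the other neurons. Among the 26 clusters, the thinned share was 1.64% in cluster 9 and 4.88% in cluster 15, ranks 2 and 12 from the lowest. Cluster 10 had the highest share, 35.8%, and cluster 1, with no members, had 2.04%. A low share was thus not particular to the clusters of Trpm8 neurons. The ganglia of several levels, and by one label of both sides, were pooled, so the shares say nothing of how many Trpm8 neurons reach the tendon.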

How the data were processed

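Whole UMI counts per feature and barcode were deposited by the authors for each of 3 libraries, and per the file headers Cell Ranger 8.0.1 made them; the submitters' processing notes name mm10 and GRCm39 without saying which served the DRG file, which gives 35980 features by symbol, so no coordinates are printed. For aligner settings and use of strand, the sources used here give nothing. The count matrices were read with pandas 2.3.3 and scipy 1.17.1 in Python 3.11.15, and scanpy 1.11.5 served for clustering and doublet scores. UMIs were summed over members and over other neurons and scaled to CPM. Ratios have exact conditional binomial intervals and shares exact Clopper-Pearson intervals at 95%, and a sum of 0 was set against 3 counts. Shares were compared after thinning each neuron to 10000 UMIs. Neurons were clustered without Trpm8 on 2000 variable genes, 30 components and 15 neighbours (Leiden, resolution 1). Doublets were scored with Scrublet, which marked 572 of 23566 barcodes (2.43%). Satellite glia were a gate on Fabp7 (at least 3 UMIs and 100 CPM) with a minimum depth and UMIs of fewer than 3 of the 8 neuron genes. The ratio steps recovered the changed genes of simulated counts, which were drawn from summed levels with counting error only. Spread between neurons, glial RNA and scattered members were not simulated, so the check does not cover them.

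Named genes were the 20 highest and 12 lowest ratios among genes with a UMI in at least 25% of the thinned neurons of the higher group, all entered genes of the cold, TRP, leak and pacemaker lists, and the 3 largest of every other list, to which other genes of the lists were added after their values were seen. The members, the 36 gene lists and the rules were chosen with earlier results of these data known. Alternatives varied the depth, the gates, glial and doublet filters, gene filters and weighting. The tendon libraries entered no comparison. Some genes of the lists are not reported here by name.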

Additional observations from a re-analysis of the deposited data

Results flagged for a closer look

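Trpm8 UMIs also occurred in both tendon libraries, which hold no cell bodies of sensory neurons. There were 10 in the neurectomy library, in 10 barcodes with 1 each, or 0.125 CPM. There were 19 in the sham library, in 17 barcodes with at most 2 each, or 0.142 CPM. Both lie above the 3 counts that a sum of 0 allows and far below the 8.87 CPM of the DRG library. There is 1 library in each group, so the libraries were not compared with a test.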

How the results depend on the processing

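The number of members followed its limits: at least 5 Trpm8 UMIs and 200 CPM gave 116 (3.93% of neurons), at least 2 UMIs and 50 CPM gave 187 (6.34%), and leaving out neurons with over 20 glial UMIs per 10000 gave 84. The count of genes at least 2-fold higher and lower rose to 5643 and 1734 with 10 summed counts and no CPM minimum, where the higher made up 76.5% of the calls in place of 55.6%, and fell to 365 and 297 at 50 CPM. The Foxp2 share was 78.4% when neurons of 5000 UMIs were admitted and thinned to that depth, and 83.4% at the looser Trpm8 limit. It was 95.9% without thinning and 97.8% in cluster 9 alone, which Foxp2 could help form. Apoe reversed, to −0.34 without the neurons rich in glial UMIs and to −2.63 in cluster 9. The cluster share of 60.5% was the same at resolutions 0.5 and 2, and 61.4% without doublets. Over 16 settings, between 99 and all 105 of the named genes past 2-fold stayed past it in the same direction; those lost in at least 1 setting included Trpv1, Ngfr, Rbfox3, Kcnk10, S100a13, Kcnk3, Hcn2, Prlr, Kcna1, Cdh19 and Apoe. The settings for cluster 9 alone and for both main clusters were chosen after seeing the data. Genes with few UMIs in 147 neurons are limited by depth. No paired analysis was possible because each group has 1 library.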

Other observations

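Some genes raised in Trpm8 neurons were neighbours on the chromosome. Of 141 genes at least 4-fold higher, 134 were found in the RefSeq gene table, and 14 of these (10.4%) were adjacent to another such gene. Over all genes that entered the comparison, 0.831% were adjacent to a gene at least 4-fold higher. The 7 pairs were Hjurp and Trpm8, Col4a3 and Col4a4, A330008L17Rik and Cdh8, Cpxm2 and Gpr26, Hpca and Tmem54, 8430422H06Rik and Zfp521, and Gm20754 and Slitrk3. Trpm8, which chose the cells and is raised by the rule, counts among the 141 genes, and its pair with Hjurp enters both percentages. Hpca and Tmem54 overlap on opposite strands, and reads of such pairs cannot be told apart without strand. What the pairing comes from was not tested.

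Schwann cell and mural markers gave mixed values. Scn7a, a sodium channel gene listed with Schwann cells, was found in 100% of thinned members and 82.8% of other neurons, against 8.11% of satellite glia, and stood at 991 against 304 CPM. Pmp22, a myelin gene, was lower in members (133 against 475 CPM). Rgs5, a G protein regulator gene listed with mural cells, was at 2.71 against 137 CPM and was found in 21.8% of thinned other neurons. Of 7 endothelial, 7 macrophage and 6 lymphocyte markers 0 entered the comparison.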
